A study of Mus musculus with 72 samples.

Results

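Islets of BALB/cJ mice after 5 days of high-fat diet (HFD) were compared with islets of BALB/cJ mice on regular chow (RC) at the same day. The members are the 8 libraries labelled BALB/cJ and day 5, with 4 HFD and 4 RC libraries, out of 72 samples in the series, of which 69 had values and 3 were not analysed here. The series also holds islets of C57BL/6J and DBA/2J mice, and the mice of each strain received HFD or RC for 5, 13 or 33 days per the sample labels; the design text of the series gives 13 days where the labels give 33, and the labels were used. All mice were male and 8 weeks old per the labels, and carried no engineered allele that the labels name. Each library came from 120 to 150 hand-picked islets of 1 mouse, kept overnight in culture after isolation, so the measured RNA is that of islets that had left the animal and its diet. Levels of 14604 genes are given as log2 CPM (the authors' log2 of read counts scaled to one common library size). Differences are HFD minus RC on that log2 scale with a standard error, and a gene was called when its Benjamini-Hochberg adjusted p from limma, over all genes, was under 0.05.

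Pancreatic islets are mostly beta cells, which make insulin as a precursor that is folded in the endoplasmic reticulum (ER). The ER holds chaperones such as Hspa5 (BiP) that bind unfolded chains, disulfide isomerases that form and rearrange the bonds of proinsulin, and a disposal route, ER-associated degradation, that returns misfolded chains to the cytosol. These genes are induced together by the unfolded protein response, in which ATF6 and XBP1 act on their promoters when the folding load rises. Fatty acids, which a high-fat diet supplies, are known to induce genes of fatty acid uptake and activation in many tissues, and Scd1, which makes monounsaturated fatty acids, is a well-known lipid-responsive gene of liver and islets.

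Reads in the measured genes numbered 14252796 to 27166435 per library among the 8, and Ins1 and Ins2 took 15.0% to 22.1% of them. The 4 HFD libraries did not form one group. The first principal component of the 8 libraries carried 41.1% of the variance and set HFD mice 1 and 2 (-35.3 and -31.0) far from HFD mice 3 and 4 (24.9 and 25.6), with the RC mice between them at -7.65, -6.23, 14.2 and 15.5. The same division follows the number that ends each library title: mice 1 and 2 of each diet carry lower numbers than mice 3 and 4 of either diet. The labels do not say what this number is. The mice are called lower-numbered and higher-numbered below. Results are therefore given over all 8 mice. For the called genes as a set and for some lists they are also given within the lower-numbered and the higher-numbered mice. This division was chosen with earlier results of these data known.

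HFD for 5 days was accompanied by lower levels of ER chaperone genes and higher levels of a small set of genes that includes the lipid genes Scd1, Fabp4 and Acsl1. In all, 46 of the 14604 genes were called (0.315%), of which 20 rose (0.137%) and 26 fell (0.178%), and 1579 genes had an unadjusted p under 0.05. The highest named change was that of Scd1, at 3.23 times the RC level, and the lowest was that of Derl3, at 0.378 times the RC level. The calls rested on particular mice: the count was 0 without HFD mouse 1, 2 without HFD mouse 2, 0 without RC mouse 1, 28 without RC mouse 2 and 4 without RC mouse 3, but 125 without HFD mouse 3 and 356 without HFD mouse 4. With only the 8 libraries, or only the 24 BALB/cJ libraries, in the fit, no gene was called. The calls thus depended on a spread estimated with the libraries of the other strains included.

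Of 28 measured genes that encode ER chaperones or act in ER-associated degradation, 10 were called lower and none higher. Of all genes 0.178% were called lower and 0.137% higher. Their median difference was -0.41, against 0.01 for all genes, and all 28 differences were negative, against 6911 of the 14604 genes. The levels of all 4 HFD mice lay below those of all 4 RC mice in 7 of the 28, against 2.21% of all genes (323 genes); the opposite order, seen in 2.83% of all genes (414 genes), occurred in none of the 28. The genes of the list took 1.42%, 1.46%, 1.57% and 1.98% of the reads of the HFD mice, against 2.23%, 2.04%, 2.23% and 1.94% in the RC mice. HFD mouse 4 thus overlapped with RC mouse 4, while HFD mice 1 to 3 lay below every RC mouse. The count of 10 became 0 without HFD mouse 1, HFD mouse 2, RC mouse 1 or RC mouse 3, 3 without RC mouse 2, 10 without RC mouse 4, 13 without HFD mouse 3 and 17 without HFD mouse 4. Within the lower-numbered mice the median of the list was -0.67 and 19 genes were called lower, where 2.19% of all genes were, and within the higher-numbered mice the median was -0.19 and none was called. With the stellate cell and fibroblast marker level as a covariate the count was 4, among 9 genes called lower in all. With the macrophage and endothelial levels it was 1, among 6 called lower in all. The part of these cells in the result was not tested.

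ER genes of this kind are known to share a promoter element, the ER stress response element (ERSE), written CCAAT, 9 bases of any kind, then CCACG. Since 10 members fell, the 250 bases before the transcription start were searched for it on both strands in the RefSeq promoter table (GRCm38.p6). It occurred in 35 of 27025 genes (0.13%). Of the 10 ER genes that fell, 8 had an entry and 6 of these held the element (Hspa5, Calr, Pdia6, Dnajc3, Creld2 and Derl3), and of the 16 other list members with an entry 4 held it. The related element ERSE-II (ATTGG, 1 base of any kind, CCACG), which does not overlap with ERSE in any sequence printed here, occurred in 10 genes (0.037%) and in none of those 8. A match is a description of the letters and was not tested against expression. The windows of a chaperone, an isomerase, a disulfide isomerase-like protein and a degradation factor are shown, all taken from the 6 that held the element. Each reads 5′ to 3′ along its gene with the ERSE match, on either strand, in capitals. The Hspa5 window is chr2:34771840-34772089 (plus strand), that of Pdia6 chr12:17266339-17266588 (plus strand), that of Creld2 chr15:88819396-88819645 (plus strand) and that of Derl3 chr10:75893148-75893397 (plus strand), all on GRCm38.p6.
Hspa5: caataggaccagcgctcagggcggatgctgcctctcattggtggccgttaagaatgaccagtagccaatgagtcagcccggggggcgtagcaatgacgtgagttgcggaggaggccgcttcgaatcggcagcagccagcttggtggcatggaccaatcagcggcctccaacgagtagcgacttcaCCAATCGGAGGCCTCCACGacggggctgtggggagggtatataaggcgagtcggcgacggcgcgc
Pdia6: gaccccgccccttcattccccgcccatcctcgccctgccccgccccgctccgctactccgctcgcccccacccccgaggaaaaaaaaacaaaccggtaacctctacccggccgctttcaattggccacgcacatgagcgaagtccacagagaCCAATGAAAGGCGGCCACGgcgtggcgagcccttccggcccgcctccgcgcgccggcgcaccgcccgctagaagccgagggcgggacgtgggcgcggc
Creld2: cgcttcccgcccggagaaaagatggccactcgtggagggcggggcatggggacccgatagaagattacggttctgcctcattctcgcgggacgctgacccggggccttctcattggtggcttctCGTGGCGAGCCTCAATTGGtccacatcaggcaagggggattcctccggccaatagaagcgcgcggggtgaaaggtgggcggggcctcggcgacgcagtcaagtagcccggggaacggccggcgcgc
Derl3: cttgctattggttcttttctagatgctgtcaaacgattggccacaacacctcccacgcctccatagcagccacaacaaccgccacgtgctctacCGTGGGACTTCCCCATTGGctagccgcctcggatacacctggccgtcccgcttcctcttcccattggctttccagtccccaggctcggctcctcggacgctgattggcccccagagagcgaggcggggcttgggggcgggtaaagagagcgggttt
The first base of the match lies 65 bases before the start in Hspa5, 98 in Pdia6, 126 in Creld2 and 156 in Derl3. The match reads in the direction of the gene in Hspa5 and Pdia6 and on the opposite strand in Creld2 and Derl3. The windows of Pdia4 and Sdf2l1, which also fell, hold neither element.

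Among the chaperones, Hspa5, the main ER chaperone of the Hsp70 class, measured 10.62, 10.47, 10.98 and 11.49 log2 CPM in the HFD mice, against 11.61, 11.44, 11.66 and 11.26 in the RC mice (-0.60 ± 0.15, adjusted p = 0.0453). HFD mice 1 to 3 lay below every RC mouse and HFD mouse 4 lay among them, so the groups overlapped. Hyou1, which exchanges the nucleotide of Hspa5, measured 9.59, 9.79, 10.25 and 10.48 in the HFD mice, against 10.82, 10.64, 10.80 and 10.52 in the RC mice (-0.67 ± 0.15, adjusted p = 0.0348). Every HFD mouse was below every RC mouse, although HFD mouse 4 was close to RC mouse 4. Sdf2l1, a partner of Hspa5 in the ER lumen, measured 5.88, 6.28, 7.16 and 7.50 in the HFD mice, against 7.94, 7.82, 7.93 and 7.55 in the RC mice (-1.11 ± 0.27, adjusted p = 0.0437), again without overlap. Calr, a lectin chaperone of glycoproteins, fell with -0.59 ± 0.14, adjusted p = 0.0393, and Manf, an ER protein induced and secreted under ER stress, fell with -0.63 ± 0.15, adjusted p = 0.0393. Dnajc3, a co-chaperone of Hspa5 that was named after its values were seen, fell with -0.52 ± 0.12, adjusted p = 0.0453. In Calr, Manf and Dnajc3 the HFD mouse that overlapped with the RC mice was mouse 4.

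Of the genes of disulfide formation Creld2, Pdia6 and Pdia4 fell. Creld2, a disulfide isomerase-like ER protein, measured 5.99, 6.13, 6.94 and 7.29 log2 CPM in the HFD mice, against 7.89, 7.62, 7.81 and 7.39 in the RC mice (-1.09 ± 0.22, adjusted p = 0.0222). The mean of the HFD mice was 6.59 ± 0.63 and that of the RC mice 7.68 ± 0.22 (SD, n = 4 each), and the groups did not overlap. Pdia6 measured 8.85, 9.03, 9.39 and 9.68 in the HFD mice, against 9.96, 9.91, 9.98 and 9.71 in the RC mice (-0.65 ± 0.15, adjusted p = 0.0393), also without overlap. Pdia4 measured 7.49, 7.47, 7.94 and 8.40 in the HFD mice, against 8.59, 8.29, 8.69 and 8.39 in the RC mice (-0.66 ± 0.15, adjusted p = 0.0348). HFD mouse 4 overlapped with RC mice 2 and 4 there. Ero1lb, an oxidase of beta cells that recharges the isomerases, did not pass the test (-0.38 ± 0.12, adjusted p = 0.16), although its HFD levels of 11.40, 11.51, 11.51 and 11.75 all lay below its RC levels of 12.11, 11.84, 11.95 and 11.76.

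In ER-associated degradation Derl3, a subunit of the channel that returns misfolded chains to the cytosol, measured 3.24, 3.66, 5.33 and 5.23 log2 CPM in the HFD mice, against 5.94, 6.16, 5.71 and 5.25 in the RC mice (-1.40 ± 0.31, adjusted p = 0.0283). HFD mice 1 and 2 were far below all others, and HFD mouse 3 lay between RC mouse 4 and RC mouse 3. Outside the list, further genes of the secretory route fell; they were named after their values were seen. Uggt1, which tags misfolded glycoproteins for another round of folding, fell with -0.32 ± 0.08, adjusted p = 0.0453, and Alg12, an enzyme that builds the sugar donor of N-glycosylation, with -0.56 ± 0.13, adjusted p = 0.0393. Srpr, the receptor that brings ribosomes to the ER membrane, fell with -0.38 ± 0.09, adjusted p = 0.0437. Lman1 and Mia3, both of which help cargo to leave the ER, fell with -0.46 ± 0.11, adjusted p = 0.0453 for Lman1 and -0.29 ± 0.07, adjusted p = 0.0348 for Mia3.

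**Figure D1:**
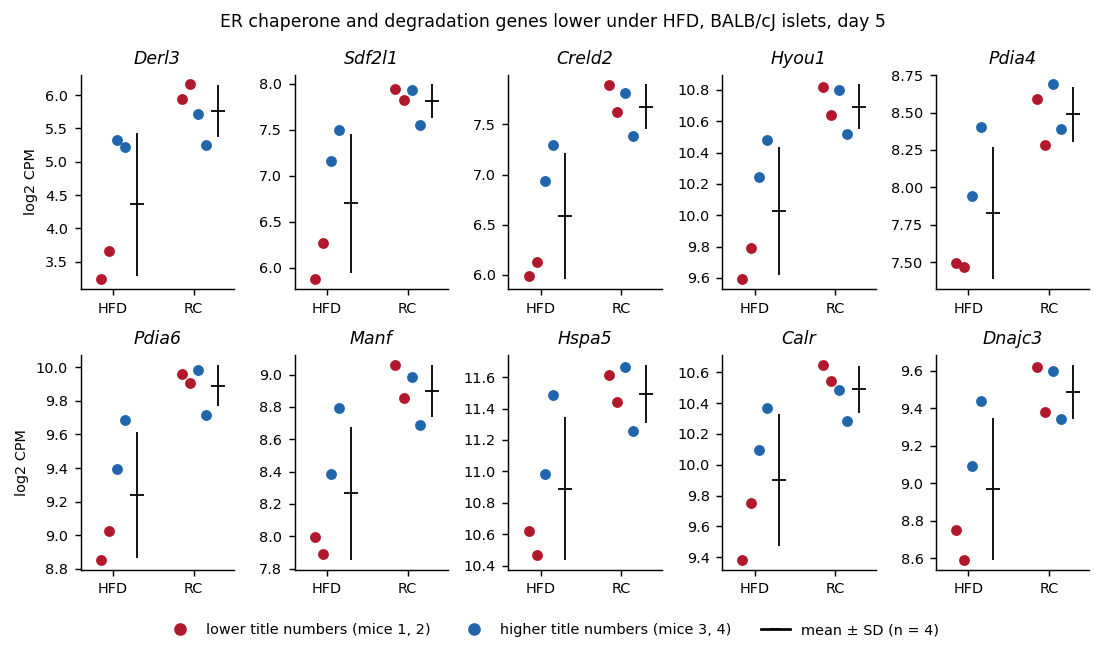
Levels (log2 CPM, vertical axis, 1 scale per gene) of the 10 ER genes that fell, in the 4 HFD mice (left) and 4 RC mice (right) of each panel, with mean ± SD. HFD mice 1 and 2 (red, lower title numbers) are the lowest in every panel, for example 3.24 and 3.66 in Derl3, while HFD mice 3 and 4 (blue) lie nearer to the RC mice, at 5.33 and 5.23.

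The other genes with the lowest changes were Ovol2, Gnat2 and Chid1. Ovol2, a zinc finger transcription factor of epithelia, measured 2.01, 2.32, 3.22 and 3.09 log2 CPM in the HFD mice, against 4.62, 4.41, 3.42 and 3.51 in the RC mice (-1.33 ± 0.32, adjusted p = 0.0437). The groups did not overlap, and the RC mice themselves fell into a higher pair (mice 1 and 2) and a lower pair. Chid1, a secreted protein with a chitinase-like domain, measured 5.51, 5.89, 6.21 and 6.35 in the HFD mice, against 6.62, 6.58, 6.63 and 6.40 in the RC mice (-0.57 ± 0.12, adjusted p = 0.0222), without overlap. Gnat2, the transducin subunit best known from cones, fell with -0.64 ± 0.15, adjusted p = 0.0399, and HFD mouse 4 overlapped with RC mouse 4. The rest of the 26 genes that fell were Hdlbp, Pex5l, P3h1, Sel1l3, Sept11, Cyb5b, Nkiras1 and Acad11. They were listed after their values were seen.

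The genes that rose included the lipid genes Scd1, Fabp4 and Acsl1. Scd1, the stearoyl-CoA desaturase, measured 6.67, 6.97, 4.34 and 4.49 log2 CPM in the HFD mice, against 3.59, 3.70, 4.35 and 4.07 in the RC mice (1.69 ± 0.31, adjusted p = 0.0159). HFD mice 1 and 2 were far above all others, and HFD mice 3 and 4 lay close to RC mouse 3, mouse 3 just below it and mouse 4 above it. Fabp4, a fatty acid binding protein of adipocytes, macrophages and capillary endothelium, measured 6.11, 6.32, 4.42 and 4.54 in the HFD mice, against 4.35, 4.62, 3.61 and 3.87 in the RC mice (1.23 ± 0.29, adjusted p = 0.0415). Its HFD mice 3 and 4 lay between RC mouse 1 and RC mouse 2. Acsl1, which activates long-chain fatty acids with coenzyme A, measured 5.28, 5.43, 4.85 and 4.83 in the HFD mice, against 4.57, 4.54, 4.78 and 4.66 in the RC mice (0.46 ± 0.10, adjusted p = 0.0222). The groups did not overlap, with HFD mice 3 and 4 just above RC mouse 3. Cebpa, a transcription factor of adipocytes and liver that was named after its values were seen, measured 2.43, 2.35, 1.63 and 1.39 in the HFD mice, against 0.63, 0.78, 0.49 and 1.17 in the RC mice (1.18 ± 0.25, adjusted p = 0.0222), without overlap. Its mean over all libraries, 0.88 log2 CPM, is below the level cut for naming (2.21). Since each library is a whole islet preparation, fewer cells of a type and less RNA per cell cannot be told apart in any of these values. Of the 8 adipocyte markers, Fabp4 and Lipe, a lipase of stored fat that islets also express, were measured, with 0.20 ± 0.16, adjusted p = 0.702 for Lipe, and the other 6 were not analysed here; whether adipocytes among the islets had a part in these values was not tested.

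The remaining lipid genes were mixed. In the list of fatty acid oxidation and PPAR targets 1 of 36 measured members rose (Fabp4) and none fell, with a median of 0.15. Within the lower-numbered mice 3 of them were called higher (all genes 0.993%), and within the higher-numbered mice none was called. Acad11, an acyl-CoA dehydrogenase outside the lists, was named after its values were seen. It was called lower (-0.39 ± 0.10, adjusted p = 0.0454), with overlapping groups. In that of fatty acid synthesis and desaturation 1 of 23 rose (Scd1), none fell and the median was 0.00. Cd36, the fatty acid transporter, measured 5.25, 4.76, 2.503 and 2.17 log2 CPM in the HFD mice, against 2.91, 2.75, 1.53 and 1.96 in the RC mice, and missed the threshold (1.38 ± 0.38, adjusted p = 0.0923). Dgat2, which makes triglycerides, measured 2.18, 2.38, 0.46 and 0.54 in the HFD mice, against 0.37, 0.19, 0.40 and 0.61 in the RC mice (1.00 ± 0.29, adjusted p = 0.109). In both genes HFD mice 1 and 2 were high and HFD mice 3 and 4 lay within the range of the RC mice. Cpt1a, the entry enzyme of mitochondrial fatty acid oxidation, differed by 0.50 ± 0.22, adjusted p = 0.366, and Pdk4, which restrains glucose oxidation, by 0.36 ± 0.25, adjusted p = 0.666. Cholesterol synthesis and uptake had a median of -0.22 over 26 genes, 22 of them with a negative difference and none called. That list had a median of -0.37 within the lower-numbered mice, where 4 were called lower (all genes 2.19%), and of -0.05 within the higher-numbered mice. Its member of lowest p, Fdps, measured 1.05, 1.56, 2.38 and 2.26 in the HFD mice, against 2.77, 2.55, 2.51 and 2.37 in the RC mice (-0.74 ± 0.21, adjusted p = 0.102).

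The other genes that rose serve varied functions. Anpep, aminopeptidase N, measured 6.78, 6.71, 6.54 and 6.40 log2 CPM in the HFD mice, against 5.96, 6.02, 5.95 and 5.81 in the RC mice (0.67 ± 0.13, adjusted p = 0.0222). Pcsk6, a proprotein convertase, measured 5.03, 5.25, 4.94 and 4.93 in the HFD mice, against 4.45, 4.61, 4.43 and 4.41 in the RC mice (0.56 ± 0.12, adjusted p = 0.0222). Fmo5, a flavin-containing monooxygenase, measured 3.06, 3.10, 2.89 and 3.21 in the HFD mice, against 2.32, 2.49, 2.28 and 2.22 in the RC mice (0.74 ± 0.17, adjusted p = 0.0393). In these 3 genes all 4 HFD mice, the higher-numbered ones included, lay clearly above all RC mice. Tcf7l2, a Wnt pathway transcription factor known as a human type 2 diabetes risk gene, measured 3.02, 2.89, 2.64 and 2.51 in the HFD mice, against 2.20, 2.35, 2.16 and 2.05 in the RC mice (0.58 ± 0.12, adjusted p = 0.0222), without overlap. Gad1, which makes the transmitter GABA in beta cells, measured 7.63, 7.52, 6.58 and 6.49 in the HFD mice, against 6.43, 6.31, 6.47 and 6.19 in the RC mice (0.70 ± 0.17, adjusted p = 0.0415). Its HFD mice 3 and 4 lay just above RC mouse 3. Net1, an activator of the GTPase RhoA, rose with 0.62 ± 0.15, adjusted p = 0.0415, Zfp1, a zinc finger protein, with 0.35 ± 0.08, adjusted p = 0.0453, Rsad1, a radical SAM domain protein, with 0.44 ± 0.10, adjusted p = 0.0348, and Tmem220, a membrane protein, with 0.51 ± 0.12, adjusted p = 0.0393. The groups overlapped in Tmem220 alone of these 4. The 7 other genes that rose were, like Cebpa, of low level, with means of at most 2.18 log2 CPM in the HFD mice.

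**Figure D2:**
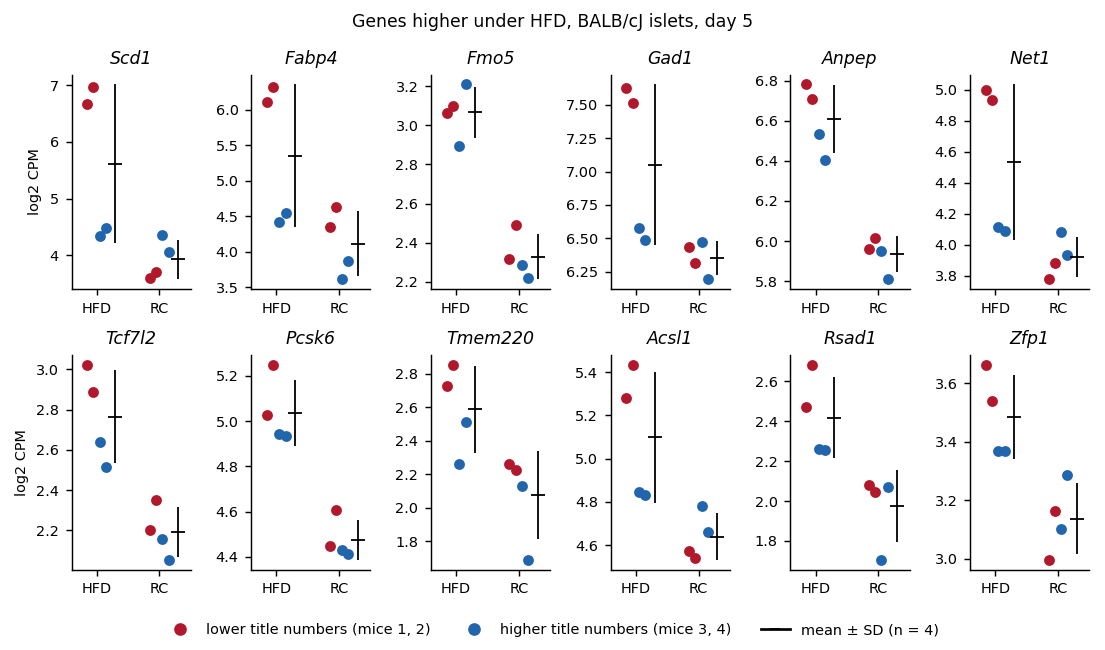
Levels (log2 CPM, vertical axis, 1 scale per gene) of the 12 named genes that rose, in the 4 HFD mice (left) and 4 RC mice (right), with mean ± SD. In Scd1, Gad1 and Net1 HFD mice 1 and 2 (red) stand far above HFD mice 3 and 4 (blue), while in Fmo5, Anpep and Pcsk6 all 4 HFD mice lie above the RC mice.

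Within the lower-numbered mice (2 HFD against 2 RC, with the spread still estimated over all 69 libraries) 465 genes were called (3.18%), 145 higher (0.993%) and 320 lower (2.19%). Within the higher-numbered mice 4 genes were called (0.0274%), all higher. All 46 genes called over the 8 mice had the same sign within the lower-numbered and within the higher-numbered mice, which is in part fixed by their choice on the same mice, and 43 of the 46 had the smaller difference in the higher-numbered mice. The medians of the 20 rising genes were 0.97 in the lower-numbered and 0.50 in the higher-numbered mice, and those of the 26 falling genes -0.81 and -0.24. Without HFD mice 1 and 2 in the fit 13 genes were called, all higher, of which 2 were among the 46, and without HFD mice 3 and 4 there were 1038, of which 44 were among the 46.

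**Figure D3:**
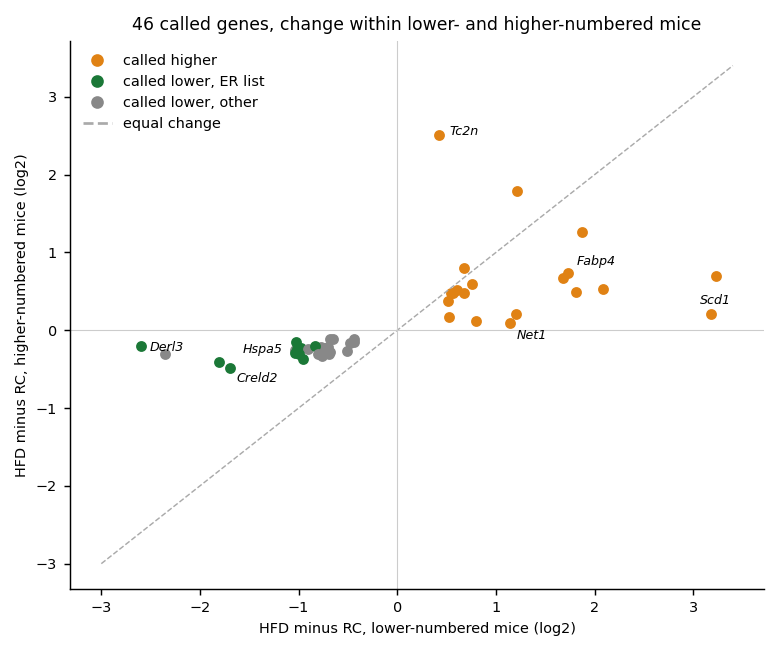
HFD minus RC (log2) of the 46 called genes within the lower-numbered mice (horizontal axis) and within the higher-numbered mice (vertical axis), with the line of equal change dashed. Scd1 (3.18 and 0.20) and Derl3 (-2.60 and -0.20) lie near the horizontal axis, Anpep (0.76 and 0.59), Pcsk6 (0.61 and 0.51) and Fmo5 (0.68 and 0.80) lie near the dashed line, and Tc2n (0.42 and 2.503) lies far above it.

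Whether the HFD difference was unequal between the lower-numbered and the higher-numbered mice was tested directly, and 4 genes passed (0.0274%). The division was chosen with earlier results of these data known, so these adjusted p-values are not those of an independent test. Scd1 differed by -2.98 ± 0.42 (higher-numbered minus lower-numbered HFD difference, adjusted p = 3.11e-05). Cry2, a repressor of the circadian clock, measured 7.85, 7.57, 6.49 and 6.27 log2 CPM in the HFD mice, against 6.50, 6.50, 6.72 and 6.57 in the RC mice, a difference between the lower- and higher-numbered mice of -1.47 ± 0.28 (adjusted p = 0.0175). Fam107a, a stress- and glucocorticoid-induced gene of the brain, measured 6.86, 6.22, 2.78 and 2.46 in the HFD mice, against 3.03, 4.02, 3.42 and 2.64 in the RC mice (-3.43 ± 0.71, adjusted p = 0.0374). In Scd1, Cry2 and Fam107a the high values are those of HFD mice 1 and 2 alone. Trpm5, a calcium-activated channel of beta cells, measured 6.22, 7.18, 7.75 and 7.85 in the HFD mice, against 7.66, 7.94, 7.50 and 7.46 in the RC mice (1.42 ± 0.29, adjusted p = 0.0351), with HFD mouse 1 the lowest. Derl3 just missed the threshold (2.40 ± 0.51, adjusted p = 0.0501).

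The 4 genes called within the higher-numbered mice were Tc2n, Hsd17b13, Tmed6 and Nupr1; the first 3 were named after their values were seen. Nupr1, a stress-induced chromatin protein strongly inducible in acinar cells, measured 3.80, 3.24, 6.35 and 5.45 log2 CPM in the HFD mice, against 3.13, 3.55, 3.18 and 3.85 in the RC mice, with a difference of 2.38 ± 0.46 within the higher-numbered mice (adjusted p = 0.0143). Tmed6, a cargo receptor of the early secretory route, measured 2.92, 2.96, 4.49 and 4.50 in the HFD mice, against 3.13, 3.27, 3.26 and 3.25 in the RC mice (1.24 ± 0.23, adjusted p = 0.00645). Hsd17b13, a lipid droplet protein, measured 1.16, 0.12, 3.57 and 3.04 in the HFD mice, against 0.30, 0.08, 0.21 and 1.29 in the RC mice (2.55 ± 0.43, adjusted p = 0.00134). All 3 genes were high in HFD mice 3 and 4 alone. The same 2 mice had the highest acinar marker levels: the mean over the 27 measured digestive enzyme and acinar genes was 5.59, 5.00, 9.70 and 8.93 log2 CPM in the HFD mice, against 4.64, 5.96, 6.38 and 7.33 in the RC mice. The part of acinar RNA in these 4 genes was not tested.

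Acinar genes as a list had a median difference of 1.35, with 26 of 27 positive and none called. The median was 0.10 within the lower-numbered and 2.55 within the higher-numbered mice. The genes took 0.377%, 0.229%, 5.51% and 3.16% of the reads of the HFD mice, against 0.136%, 0.368%, 0.505% and 1.04% in the RC mice, and their summed level ran from 2214 to 58684 CPM in the HFD mice and from 1448 to 10400.3 CPM in the RC mice. None of the measured markers was at 0 in all 8 libraries. With the mean acinar level as a covariate 1.88% of genes were called, all 46 among them, and 15 ER genes were among the 184 genes that fell. Stellate cell and fibroblast genes had a median of -0.34 over 19 genes, none called over the 8 mice. The median was -0.89 within the lower-numbered and 0.19 within the higher-numbered mice. Their mean levels were 3.44, 3.43, 4.28 and 4.29 log2 CPM in the HFD mice, against 4.30, 4.20, 3.88 and 4.18 in the RC mice. HFD mice 1 and 2 were the lowest, as in the ER genes. With that level as a covariate 25 genes were called, and 4 ER genes were among the 9 that fell. Macrophage genes had a median of -0.17 over 14 genes, with -0.34 within the lower-numbered and 0.02 within the higher-numbered mice. Endothelial genes had a median of -0.14 over 12, with -0.35 and 0.06 in the same order. None of either list was called over the 8 mice. With the mean levels of both lists as covariates 19 genes were called, and 1 ER gene was among the 6 that fell. The summed stellate and fibroblast level ran from 450.0 to 742 CPM in the HFD mice and from 588 to 804 CPM in the RC mice, and that of macrophages from 106 to 140.4 CPM in the HFD mice and from 132 to 172 CPM in the RC mice.

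Hormone and beta-cell genes were not called over the 8 mice. In the list of beta-cell identity and function none of 34 genes passed and the median was -0.04. Within the lower-numbered mice its median was -0.11 and 2 genes were called lower (all genes 2.19%). Within the higher-numbered mice its median was -0.05 and none was called. Ins1 measured 15.36, 15.55, 15.81 and 15.66 log2 CPM in the HFD mice, against 16.10, 16.18, 15.92 and 15.79 in the RC mice (-0.40 ± 0.18, adjusted p = 0.389), and Ins2 measured 16.63, 16.83, 17.11 and 16.88 in the HFD mice, against 17.25, 17.28, 17.14 and 17.07 in the RC mice (-0.32 ± 0.21, adjusted p = 0.623). Together the 2 insulin genes took 15.0%, 17.0%, 18.7% and 16.7% of the reads of the HFD mice, against 21.2%, 22.1%, 19.9% and 19.3% in the RC mice. All HFD mice lay below all RC mice in this share, by less than 1 percentage point between HFD mouse 3 and RC mouse 4. As a share of the reads outside the acinar list, the values were 15.1%, 17.0%, 19.8% and 17.3% in the HFD mice, against 21.2%, 22.2%, 19.996% and 19.6% in the RC mice, and HFD mouse 3 then overlapped with RC mouse 4. Counting error is small beside these differences, since no Wilson 95% interval reached further than 0.0195 percentage points from its share. Chgb, a granule protein, differed by -0.29 ± 0.10, adjusted p = 0.202, Ucn3, a peptide of mature beta cells, by -0.24 ± 0.11, adjusted p = 0.391 and Iapp, amylin, by -0.18 ± 0.11, adjusted p = 0.569. Mafa (-0.14 ± 0.26, adjusted p = 0.903), Pdx1 (-0.02 ± 0.09, adjusted p = 0.964) and Nkx6-1 (-0.10 ± 0.10, adjusted p = 0.786), transcription factors of beta cells, Slc2a2 (0.05 ± 0.14, adjusted p = 0.939), the glucose transporter, and Glp1r (-0.03 ± 0.12, adjusted p = 0.955), the incretin receptor, all missed the threshold. So did the hormones of other islet cells, Gcg (0.26 ± 0.18, adjusted p = 0.66), Sst (-0.14 ± 0.15, adjusted p = 0.806), Ppy (-0.61 ± 0.31, adjusted p = 0.476) and Pyy (0.19 ± 0.21, adjusted p = 0.817).

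Genes of DNA replication and mitosis divided the HFD mice. Over 46 genes the median was -0.49, with 41 negative and none called. The median was -1.38 within the lower-numbered mice, where 22 of the 46 were called lower (all genes 2.19%), and 0.10 within the higher-numbered mice, where none was called. The mean level was 0.75, 0.89, 1.91 and 2.27 log2 CPM in the HFD mice, against 2.36, 2.08, 2.13 and 1.75 in the RC mice. Mki67, the proliferation marker, measured 1.37, 1.95, 3.37 and 4.02 in the HFD mice, against 4.20, 3.52, 3.67 and 3.34 in the RC mice (-1.01 ± 0.43, adjusted p = 0.345). HFD mice 1 and 2 were below every RC mouse, and HFD mice 3 and 4 were within the RC range. Nusap1 (-1.24 ± 0.36, adjusted p = 0.117) and Prc1 (-1.26 ± 0.38, adjusted p = 0.126), both of the mitotic spindle, were also lowest in HFD mice 1 and 2.

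Of 20 clock genes none was called over the 8 mice, with a median of 0.34. The median was 0.74 within the lower-numbered mice, where 7 were called higher (all genes 0.993%) and 3 lower (all genes 2.19%), and -0.02 within the higher-numbered mice. The mean level was 5.17, 5.08, 4.86 and 4.76 log2 CPM in the HFD mice, against 4.63, 4.61, 4.70 and 4.85 in the RC mice, with HFD mice 1 and 2 the highest. Tef, a clock output factor, measured 7.17, 7.20, 7.06 and 6.61 log2 CPM in the HFD mice, against 5.64, 5.51, 6.80 and 6.55 in the RC mice (0.89 ± 0.24, adjusted p = 0.0752). Per3, a period repressor, measured 5.60, 5.51, 5.15 and 4.58 in the HFD mice, against 3.50, 3.57, 4.77 and 5.05 in the RC mice (0.99 ± 0.33, adjusted p = 0.17). Nfil3, a repressor that opposes Tef and Dbp, measured 2.82, 2.94, 2.47 and 2.95 in the HFD mice, against 4.98, 5.27, 2.74 and 3.44 in the RC mice (-1.31 ± 0.43, adjusted p = 0.16). In all 3 genes RC mice 1 and 2 differed from RC mice 3 and 4, which lay nearer to the HFD mice, whereas in Cry2, described above, HFD mice 1 and 2 alone stood apart. Dbp (1.10 ± 0.38, adjusted p = 0.202), Arntl (-0.95 ± 0.37, adjusted p = 0.275) and Nr1d1 (0.74 ± 0.39, adjusted p = 0.502) did not pass. The time of day at isolation is not given in the labels, and its part was not tested. Rbm3, a cold-inducible RNA-binding protein, measured 6.90, 6.77, 5.73 and 5.82 in the HFD mice, against 5.77, 5.69, 5.51 and 5.34 in the RC mice (0.73 ± 0.25, adjusted p = 0.188).

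**Figure D4:**
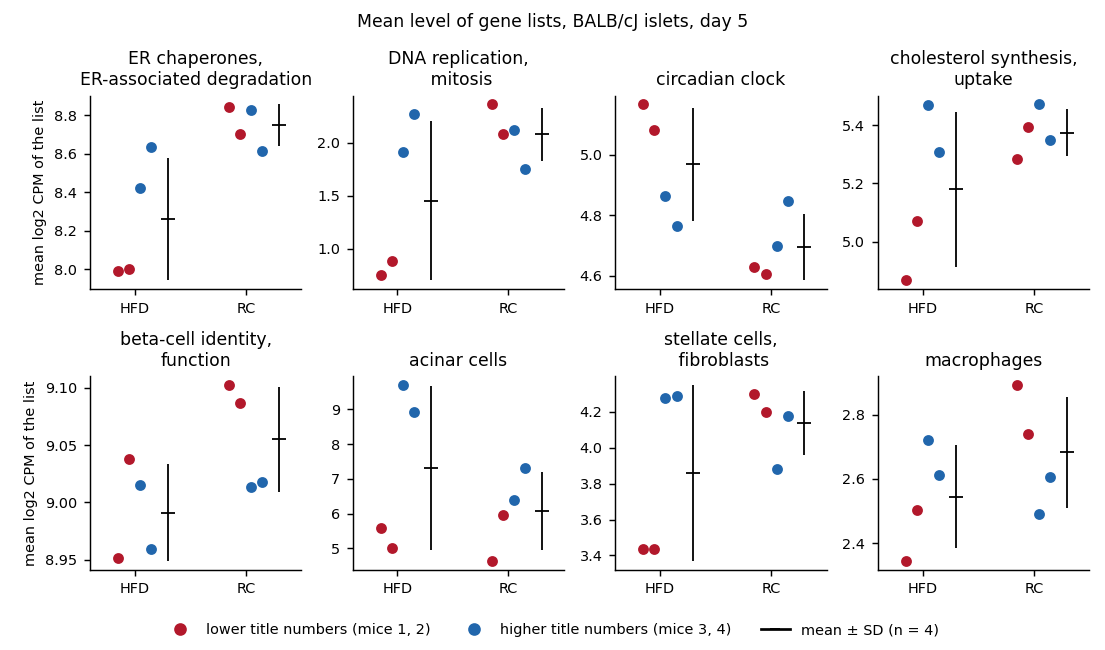
Mean level (log2 CPM, vertical axis, 1 scale per list) of 8 gene lists in the 4 HFD mice (left) and 4 RC mice (right) of each panel, with mean ± SD. HFD mice 1 and 2 (red) are lowest in ER, replication and stellate genes, for example 0.75 and 0.89 in replication and mitosis, and HFD mice 3 and 4 (blue) are highest in acinar genes at 9.70 and 8.93.

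In the other lists no member was called over the 8 mice apart from Fabp4. Medians over all 8 mice lay close to 0 for exocytosis machinery (0.06, 25 genes), the integrated stress response (-0.09, 24 genes), glycolysis and lactate (0.04, 19 genes), beta-cell disallowed genes (0.09, 23 genes) and oxidative phosphorylation (-0.10, 63 genes). They were 0.12 for 7 mitochondrially encoded genes, 0.02 for 25 NRF2 and antioxidant genes, -0.01 for 19 immediate early genes, 0.01 for 12 hypoxia-inducible genes and -0.06 for 11 NF-kB targets, chemokines included. Genes that interferon induces had a median of -0.05 (30 genes), MHC and antigen processing genes of -0.01 (17 genes), ribosomal protein genes of 0.06 (76 genes), insulin and IGF signalling of 0.03 (28 genes) and incretin and cAMP signalling of 0.08 (23 genes). Small as they were, the differences were negative in 54 and positive in 9 oxidative phosphorylation genes. They were positive in 61 and negative in 15 ribosomal protein genes. Of all 14604 genes 7688 were positive and 6911 negative. The 4 measured Reg genes, which acinar cells also express, had a median of 0.98, and Reg1 measured 5.59, 4.49, 9.21 and 7.91 log2 CPM in the HFD mice, against 4.39, 5.88, 5.93 and 6.85 in the RC mice (1.04 ± 0.82, adjusted p = 0.71), high in the same HFD mice as the acinar genes. Among cell type lists the medians were 0.09 for alpha (12 genes), 0.07 for delta (8 genes), -0.52 for PP and epsilon (5 genes), -0.03 for ductal (12 genes), 0.27 for lymphocyte (3 genes), 0.72 for adipocyte (2 genes, of which Fabp4 rose) and 0.25 for Schwann genes (8 genes). Pgk1 of glycolysis came close to the threshold (-0.37 ± 0.10, adjusted p = 0.0566), and so did Ppargc1a, a coactivator of oxidative metabolism (0.86 ± 0.23, adjusted p = 0.069).

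At later days the same strain gave few calls. HFD minus RC at day 13 called 1 gene (0.00685%), with 2140 genes at an unadjusted p under 0.05, against 1579 at day 5. At day 33 it called none (0%), with 669 genes at an unadjusted p under 0.05. Of the 46 genes called at day 5, 22 had the same sign at day 13 and 39 at day 33, among them 7 and 25 of the 26 that fell. The median difference of all genes was -0.013 at day 13 and -0.0018 at day 33. Many of the 26 are genes of the ER and the secretory route, so their signs are not separate observations. At day 13 more RC than HFD mice carry lower title numbers, so diet and title number are partly confounded there. The part of the title number in the day 13 values was not tested. Creld2 differed by 0.07 ± 0.22 at day 13 and by -0.27 ± 0.22 at day 33, and Scd1 by 0.03 ± 0.31 at day 13 and by -0.09 ± 0.31 at day 33. The test of the difference between day 5 and day 13 called no gene with limma (0%), with 2116 genes at an unadjusted p under 0.05, and that between day 5 and day 33 called none (0%), with 706. With voom on recovered reads both counts were 0 as well. A difference between the day 5 and the later changes was thus not detected in any gene.

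In C57BL/6J islets at day 5 HFD minus RC called 1.87% of genes. All C57BL/6J HFD mice of that day carry lower title numbers than the RC mice, so diet and title number cannot be told apart in that contrast or in the strain difference below. Of the 26 genes that fell in BALB/cJ all 26 had a negative difference in C57BL/6J and 8 were called, and of the 20 that rose 10 had a positive difference. Pdia6 differed by -0.65 ± 0.15 there (adjusted p = 0.0137), Hyou1 by -0.56 ± 0.15 (adjusted p = 0.035) and Creld2 by -0.78 ± 0.22 (adjusted p = 0.0493). Gad1 was the gene called in both strains among those that rose, with 0.63 ± 0.17 in C57BL/6J (adjusted p = 0.0333). The median of the ER list was -0.33 in C57BL/6J, against -0.0076 for all genes. As above, the signs of the 26 genes are not separate observations. The HFD difference differed between BALB/cJ and C57BL/6J in 7 genes (0.0479%). Scd1 was among them, with a difference of 2.13 ± 0.44 (BALB/cJ minus C57BL/6J, adjusted p = 0.0285), since HFD minus RC was 1.69 in BALB/cJ and -0.44 in C57BL/6J. Trib1, a pseudokinase of lipid metabolism, differed between the strains by -1.004 ± 0.19 (adjusted p = 0.0184), with 0.12 ± 0.13 in BALB/cJ and 1.13 ± 0.13 in C57BL/6J. Epdr1 differed by 0.78 ± 0.15 (adjusted p = 0.0184) and Sh3bp5 by 0.91 ± 0.18 (adjusted p = 0.0276), both from a small positive difference in BALB/cJ and a negative one in C57BL/6J.

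In DBA/2J islets at day 5 HFD minus RC called 80 genes (0.548%), none of the 46 with the same sign. Of the 26 genes that fell in BALB/cJ 10 had a negative difference in DBA/2J, and the median of the ER list was 0.05 there. All DBA/2J mice of that day carry title numbers below those of the higher-numbered BALB/cJ mice. The strain difference thus sets lower- and higher-numbered BALB/cJ mice together against DBA/2J mice of lower numbers only. The part of the title number in it was not tested. The HFD difference differed between BALB/cJ and DBA/2J in 60 genes (0.411%), of which the 4 with the lowest p are named. Scd1 differed by 2.26 ± 0.44 (BALB/cJ minus DBA/2J, adjusted p = 0.033), with -0.57 ± 0.31 in DBA/2J. Copg1, a subunit of the COPI coat of secretory vesicles, differed by -0.39 ± 0.08, with -0.22 ± 0.05 in BALB/cJ and 0.17 ± 0.05 in DBA/2J. Prpf31, a splicing factor, differed by -0.50 ± 0.10, and Ints3, a subunit of the Integrator complex of snRNA processing, by -0.50 ± 0.10, all 3 with an adjusted p of 0.033. Creld2 came close to the threshold for a strain difference (-1.18 ± 0.32, adjusted p = 0.0571), and Hspa5 likewise (-0.72 ± 0.21, adjusted p = 0.0658). With only the 24 day 5 libraries in the fit, no gene passed in either comparison of strains.

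**Figure D5:**
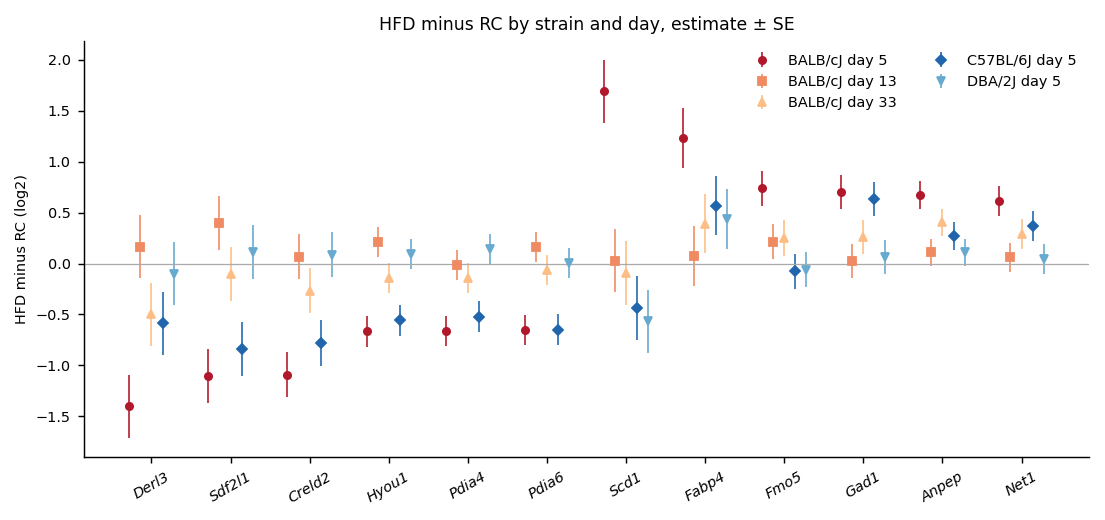
HFD minus RC (log2, estimate ± SE, vertical axis) of the 6 ER genes with the lowest and the 6 named genes with the highest change, in BALB/cJ at days 5, 13 and 33 and in C57BL/6J and DBA/2J at day 5. The ER genes lie below 0 in BALB/cJ and C57BL/6J at day 5, for example Creld2 at -1.09 and -0.78, and near 0 in DBA/2J (0.09).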

How the data were processed

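Islet RNA of the BALB/cJ mice was sequenced as stranded, poly(A)-selected libraries with 125-base single reads, per the labels' protocols. The submitters' processing notes list the build GRCm38 and, without their roles, edgeR, HTSeq (0.9.1) and STAR (2.5.3a). The deposited values are log2 CPM that the authors normalized between libraries. Every library had 1 floor of -3.54 log2 CPM, from which whole reads were recovered for 100% of values within 0.05 reads; these served for read shares and for voom. Genes were matched to the mouse GENCODE release M21 (GRCm38), which held 14589 of the 14604.

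A model with 1 mean per strain, diet and day was fitted to 69 libraries with limma 3.58.1 (lmFit, eBayes with trend) in R 4.3.3. Tests are two-sided, with Benjamini-Hochberg adjustment over 14604 genes. A chi-square test of the reads of 2 replicates gave 7.94 to 130.1 per degree of freedom, so none was a repeat of another. The script was tested on simulated data. Alternatives were other scalings, filters, voom, array weights, covariates and each library left out.

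The members, lists, tests and the division by title number were chosen with earlier results of these data known. Named genes leave out noncoding and predicted genes and the lowest 25% by mean level. Named were the 12 highest and 12 lowest changes that passed, up to 4 members of lowest p per list, 4 of lowest p per difference past the threshold and fixed islet, lipid and clock genes; further ones are said to be named after their values were seen.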

Additional observations from a re-analysis of the deposited data

Results flagged for a closer look

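The RC group held 3 values that stood apart from the other 3 mice, out of 168 genes and list means examined, where chance alone flags about 1 group in 20. Rsad1, a gene that rose, was low in RC mouse 3 (1.70 log2 CPM, the others 2.05 to 2.08), a gap that took 0.918 of the range of the group. The mean level of interferon-induced genes was low in RC mouse 3 (2.22, the others 2.41 to 2.43; 0.889 of the range). The mean level of oxidative phosphorylation genes was low in RC mouse 4 (5.68, the others 5.80 to 5.81; 0.885 of the range).

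The HFD difference was unequal between groups, by a test of the difference itself, in the following named genes. BALB/cJ minus C57BL/6J at day 5 was -1.004 for Trib1, 0.78 for Epdr1, 0.91 for Sh3bp5 and 2.13 for Scd1. BALB/cJ minus DBA/2J at day 5 was 2.26 for Scd1, -0.39 for Copg1 and -0.50 for both Prpf31 and Ints3. Higher-numbered minus lower-numbered BALB/cJ mice, a division chosen with earlier results known, was -2.98 for Scd1, -1.47 for Cry2, 1.42 for Trpm5 and -3.43 for Fam107a.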

How the results depend on the processing

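The share of genes called, 0.315% or 46 genes, depended on the libraries in the fit. It was 0% with only the 8 BALB/cJ day 5 libraries or only the 24 BALB/cJ libraries, and 0% to 2.44% when 1 library was left out. It was 0.486% with voom (43 of the 46 among them), 0.568% with array weights, 0.596% with the title number series as a covariate, 3.18% within the lower-numbered and 0.0274% within the higher-numbered mice. It was 1.88% with the acinar level, 0.171% with the stellate and fibroblast level and 0.13% with the macrophage and endothelial levels as covariates. In fits chosen after seeing the data, it was 0.089% without HFD mice 1 and 2 and 7.11% without HFD mice 3 and 4. The 10 ER genes that fell became 0 with only 8 or 24 libraries, 0 to 17 with 1 library left out, 19 and 0 within the lower-numbered and higher-numbered mice, 4 with the stellate level and 1 with the macrophage and endothelial levels, 0 without HFD mice 1 and 2 and 22 without HFD mice 3 and 4. The strain differences of 7 (C57BL/6J) and 60 (DBA/2J) genes became 0 with the 24 day 5 libraries, and the 4 genes that differed between title number series became 165 with the 8 libraries. Upper-quartile scaling, median-of-ratios scaling, log2(CPM + 1) and a filter at 1 CPM gave 43 to 66 calls. The sign of HFD minus RC in these fits was not followed for Hdlbp, Pex5l, P3h1, Sel1l3, Sept11, Cyb5b, Nkiras1 and Acad11. No other called gene that is named changed its sign, and 12 named genes that were not called did, in 28 fits of a gene. Within the higher-numbered mice the log2 difference was -0.00338 for Dgat2, 0.0717 for Glp1r, -0.000123 for Lipe, 0.112 for Mafa, 0.188 for Mki67, 0.138 for Pdx1, -0.0468 for Per3, 0.107 for Sst and -0.167 for Trib1. Without HFD mice 1 and 2 it was 0.147 for Glp1r, -0.144 for Lipe, 0.126 for Mafa, 0.00892 for Mki67, -0.0794 for Pdk4, 0.131 for Pdx1 and -0.140 for Slc2a2. Reg1 was at -0.0939 within the lower-numbered mice, -0.173 with the acinar level as a covariate and -0.722 without HFD mice 3 and 4, and Glp1r at 0.0113 with the macrophage and endothelial levels. With 1 library left out the range was -0.105 to 0.0740 for Glp1r, -0.243 to 0.00124 for Mafa, -0.103 to 0.0813 for Pdx1 and -0.0274 to 0.123 for Slc2a2. The cause of these changes was not tested. An HFD and an RC library share a title number, and so does another such pair; with that number as a replicate block 51 genes were called, all 46 among them. Deviations correlated at 0.195 and 0.349 in these pairs and at 0.155 to 0.308 in the other pairs of an HFD and an RC mouse of the same series, and at -0.330 to -0.186 in pairs across series; with 2 such pairs the number was not taken to pair the samples. Groups of 4 mice, with pairs that stand apart, limit every estimate.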
